A study of Eublepharis macularius with 8 samples.

Results

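The endoplasmic reticulum (ER) folding, secretion and stress genes described here are 47 genes chosen by symbol. All 47 had a row among the 22407 named rows of the deposited gene table, and all 47 were among the 15491 genes with enough counts to be tested. RNA was taken from whole teeth of the leopard gecko, Eublepharis macularius. All animals were adults of a reptile with lifelong tooth replacement, and functional teeth were set against developing teeth. Each tissue had 4 libraries: replicates 1 to 3 were female and held 3 teeth each, while replicate 4 was male and held 10 functional or 11 developing teeth. Replicate 4 of both tissues was also deposited under sample numbers apart from those of replicates 1 to 3. No genotype or treatment is given in the labels. They call the libraries biological replicates without saying whether each came from different animals. Replicate 4 was male, so it did not share an animal with replicates 1 to 3. A p-value here sets the tissue difference against the spread between these libraries, part of which may be technical. Each library pooled several whole teeth, so fewer cells of a type and less RNA per cell cannot be told apart. The HSPA and DNAJ chaperone genes were not analysed here.

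Proteins bound for the matrix enter the ER through the SEC61 channel, lose their signal peptide, fold with the help of chaperones and disulfide isomerases, and leave in vesicles coated with COPII proteins. Procollagen, the main product of odontoblasts and of bone cells, is also modified in the ER by prolyl and lysyl hydroxylases. Its chains need prolyl hydroxylation to form a stable triple helix. When unfolded protein builds up, the sensors ERN1, EIF2AK3 and ATF6 start the unfolded protein response, in which XBP1 and ATF4 switch on chaperone, secretion and amino acid supply genes.

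Libraries held 14144573 to 30935120 estimated counts, and RNA integrity numbers lay between 8.8 and 9.6. COL1A1 and COL1A2, which encode type I collagen, took 33.0%, 33.2%, 33.2% and 29.2% of counts in functional replicates 1 to 4, against 20.6%, 18.6%, 5.73% and 4.37% in developing replicates 1 to 4. Developing replicates 3 and 4 stood apart from developing replicates 1 and 2 in this share. The tooth tissue was checked with marker lists, given as summed CPM, which are counts scaled to a common library size with edgeR's TMM factors. The 8 odontoblast and osteoblast markers other than type I collagen summed to 54519, 72978, 55919 and 50352 CPM in functional replicates 1 to 4, against 28094, 33492, 8558 and 7825 CPM in developing replicates 1 to 4. Of 9 listed markers of ameloblasts (the enamel-forming cells) 7 had a row. These 7 summed to 1253, 122, 139 and 55.3 CPM in functional replicates 1 to 4, against 5371, 9457, 21659.5 and 33999 CPM in developing replicates 1 to 4. Markers of dentin-forming and enamel-forming cells were both present, and no marker with a row in either list was at 0 in all libraries. Developing replicates 3 and 4 had the highest ameloblast sums and the lowest odontoblast and osteoblast sums. SPARC carried most of the odontoblast and osteoblast sum, with 34296.5 to 53866 CPM in functional teeth and 4771 to 21819.7 CPM in developing teeth. ALPL, an alkaline phosphatase gene of the same list, ran the other way and fell, with 33.8, 24.1, 22.3 and 38.9 CPM in functional replicates, against 139, 80.9, 171 and 286 CPM in developing replicates (-2.51, adjusted p = 0.0276 in edgeR's test). BGLAP, the list's other gene under 0.05, rose at low counts (3.67, adjusted p = 0.0258). It had 17.7, 8.07, 3.51 and 7.34 CPM in functional replicates, against 1.02, 0.783, 0.414 and 0.615 CPM in developing replicates. DSPP of the same list overlapped between tissues (0.40, adjusted p = 0.611 in edgeR's test). It had 4026, 5308, 4086 and 3623 CPM in functional replicates, against 6001, 3503, 1493 and 1912 CPM in developing replicates. Of these 8 markers 7 had log2 fold changes above 0.

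No gene of the 47 passed the test of functional against developing teeth, though most averaged higher in functional teeth. By edgeR's quasi-likelihood fit, at a Benjamini-Hochberg adjusted p under 0.05, 0 of 47 were called in either direction, where the background over all genes was 0.8% higher and 2.01% lower. It was also 0 of 47 with the replicate number as a block (background 0.445% higher and 0.975% lower) and with a covariate for sex (background 1.59% higher and 2.74% lower). Of the 47 log2 fold changes (functional minus developing), 38 were above 0, or 80.9%, beside 50.2% of all genes tested. Their median was 0.38, beside 0.00 over all genes. Without adjustment, 16 had a p under 0.05 and were higher and 0 were lower, where the background was 9.53% higher and 12.8% lower. The 16 became 10, 5, 9 and 13 without functional replicates 1, 2, 3 and 4 in turn, and 23, 23, 7 and 7 without developing replicates 1, 2, 3 and 4 in turn. Over all genes the share higher at that threshold lay between 6.8% and 11.2% in these 8 fits. DESeq2's Wald test called 4 of the 47 higher and 0 lower, where 4.74% of all genes were higher and 6.3% lower. Those 4 were PDIA3, SEC61B, SSR4 and SPCS1, all of which act at the translocon or in folding. Without developing replicate 2, edgeR called 3 higher, which were PDIA3, SSR4 and SPCS1 (6.38%), where the background was 1.17% higher and 2.9% lower. Leaving out any other single library gave no call among the 47. The 47 genes were chosen with earlier results of these data known, were measured in the same libraries and are not independent of each other. These counts and medians are thus a description with no test.

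These directions depend on how libraries are scaled. CPM here use TMM factors, which set the bulk of genes level between libraries. With total counts as library sizes the median of all genes moved to -0.59 and that of the 47 genes to -0.18, so 33 of the 47 were below 0, and 9 passed as lower (CALR, CANX, PDIA4, PDIA6, HSP90B1, SDF2L1, PLOD3, ERN1 and CREB3L2). These 9 are 19.1% of the 47, below the 48.1% of all genes called lower on that scale, where 0.975% were called higher. Relative to the median of all genes the 47 kept the same place, at 0.38 above it with TMM and 0.41 above it with total counts. Above the median of all genes lay 38 of the 47 with TMM and 38 with total counts. Unless total counts are named, log2 fold changes below are on the TMM scale, where the median of all genes is near 0. Signs given with total counts are set against 0, not against the median of all genes on that scale.

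**Figure D1:**
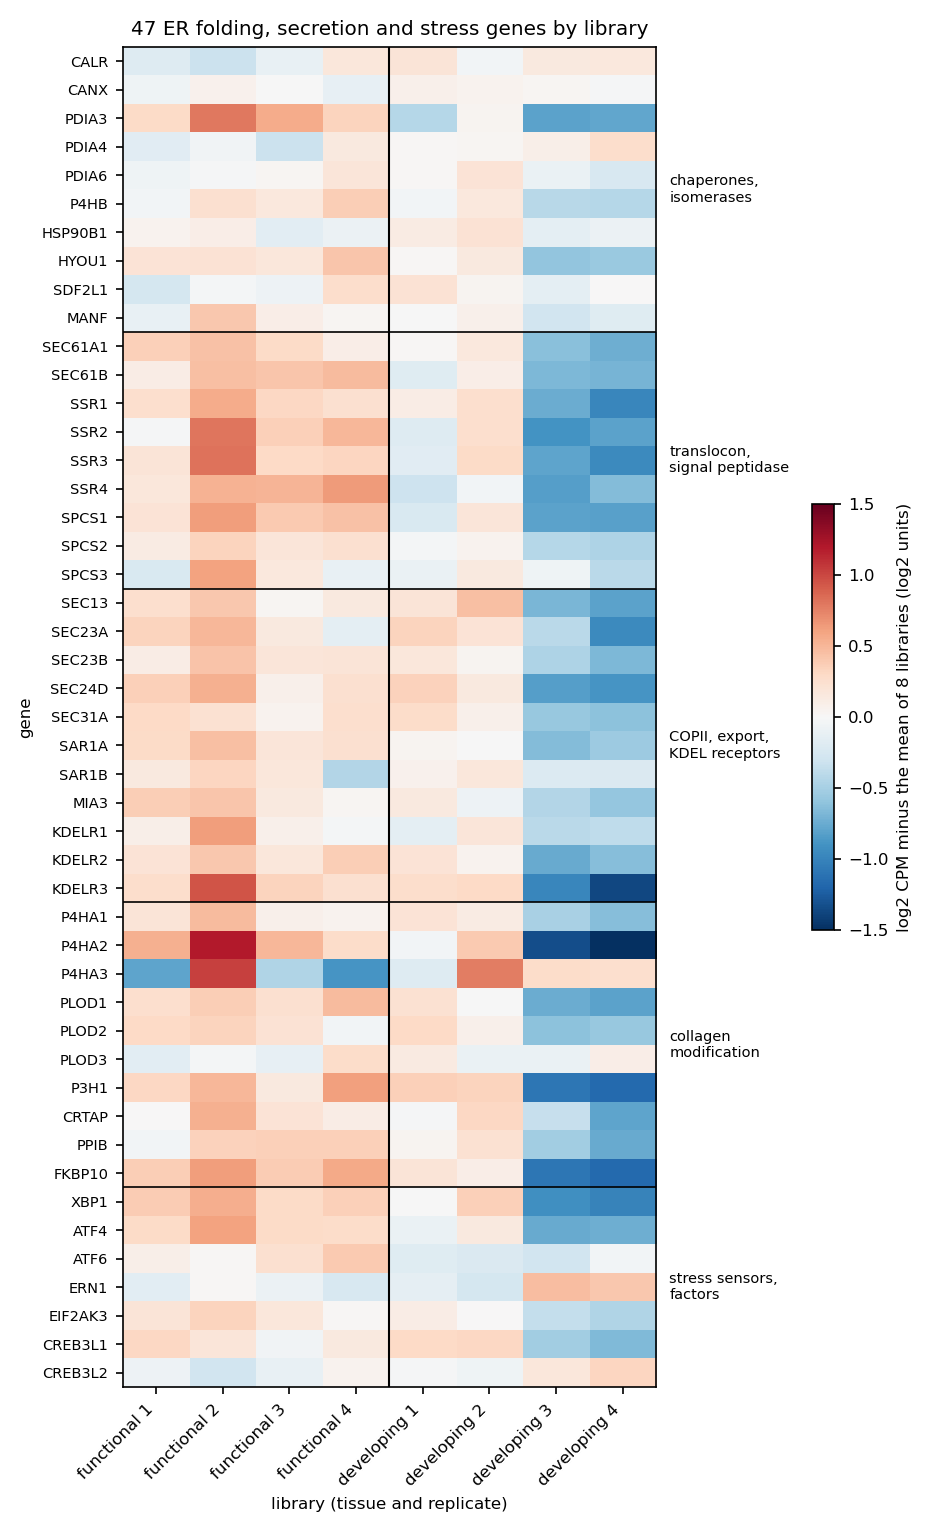
Each row is a gene, each column a library, and colour is log2 CPM minus the mean of the 8 libraries, in log2 units (blue below, red above; the strongest colours are clipped), with functional libraries on the left. Developing replicates 3 and 4 are blue for most genes, while developing replicates 1 and 2 are pale like the functional libraries, and ERN1 and CREB3L2 show the opposite colours.

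The developing libraries were far from uniform. Developing replicates 3 and 4 were the lowest 2 of the 8 libraries for 35 of the 47 genes, or 74.5%, beside 16.2% of all genes. Both lay below developing replicates 1 and 2 for 39 genes (83% beside 28.2% of all genes) and both lay above them for 3 genes (6.38% beside 27.8%). At the other end, functional replicate 2 was the highest library for 27 genes (57.4% beside 13% of all genes). A score was taken as the mean over the 47 genes of log2 CPM relative to the 8 libraries. It was 0.12, 0.39, 0.15 and 0.18 in functional replicates 1 to 4, against 0.05, 0.13, -0.48 and -0.54 in developing replicates 1 to 4. Developing replicate 2 scored above functional replicate 1, so the tissues overlapped. By replicate number, the score differed by 0.07, 0.26, 0.63 and 0.72 (functional minus developing) in numbers 1 to 4, while the mean over all genes differed by between -0.05 and 0.03. With total counts as library sizes the score difference was below 0 in all 4 numbers, from -0.34 to -0.064, and that of all genes was lower still, from -0.73 to -0.39.

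With developing replicates 3 and 4 left out, a comparison chosen after the data were seen, the median log2 fold change of the 47 genes was 0.14, beside 0.02 over all genes, and 34 were above 0. None of the 47 was called and 5 were higher at an unadjusted p under 0.05, beside 6.96% of all genes. Developing replicates 3 and 4 were the lowest libraries for most of the 47 genes. For those genes a smaller difference without them, here and below, follows from the choice and is no test. Between developing libraries, the odontoblast and osteoblast marker sums and the type I collagen share above were lowest in replicates 3 and 4, like the score. The ameloblast marker sums ran the other way and were highest in developing replicates 3 and 4. Fibroblast markers, summed over 6 genes, were also lowest there, with 8749, 5627, 4472 and 2800.2 CPM in developing replicates 1 to 4. COL3A1 carried most of that sum, with 6090, 3120, 3121 and 1880 CPM, and was level in developing replicates 2 and 3. PDGFRA and POSTN were higher in developing replicate 3 than in developing replicate 2, while DCN, LUM and FBLN1 were lower. In functional teeth the fibroblast sum was 6610 to 10659 CPM. Between tissues, macrophage markers (8 with a row of 10 listed) summed to 166, 128, 129 and 379.5 CPM in functional replicates 1 to 4. They summed to 52.9 to 75.6 CPM in developing teeth, with 4 of 8 called higher. Odontoclast markers summed to 395, 509, 695 and 1876 CPM in functional replicates 1 to 4 and 146 to 330.1 CPM in developing teeth (9 of 9 log2 fold changes above 0, none called). For both lists the highest functional sum was that of replicate 4, the male library. Endothelial markers summed to 62 to 104 CPM in functional teeth and 29.5 to 65.7 CPM in developing teeth (6 of 6 above 0, none called). B and plasma cell markers summed to 11.4 to 23.5 CPM in functional teeth and 11.4 to 63.2 CPM in developing teeth (1 of 3 tested above 0, none called). JCHAIN alone had 41 CPM in developing replicate 4, and CD79A, the gene above 0 (0.71), had at most 1.35 CPM in any library. The part of these cell types in the result was not tested.

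**Figure D2:**
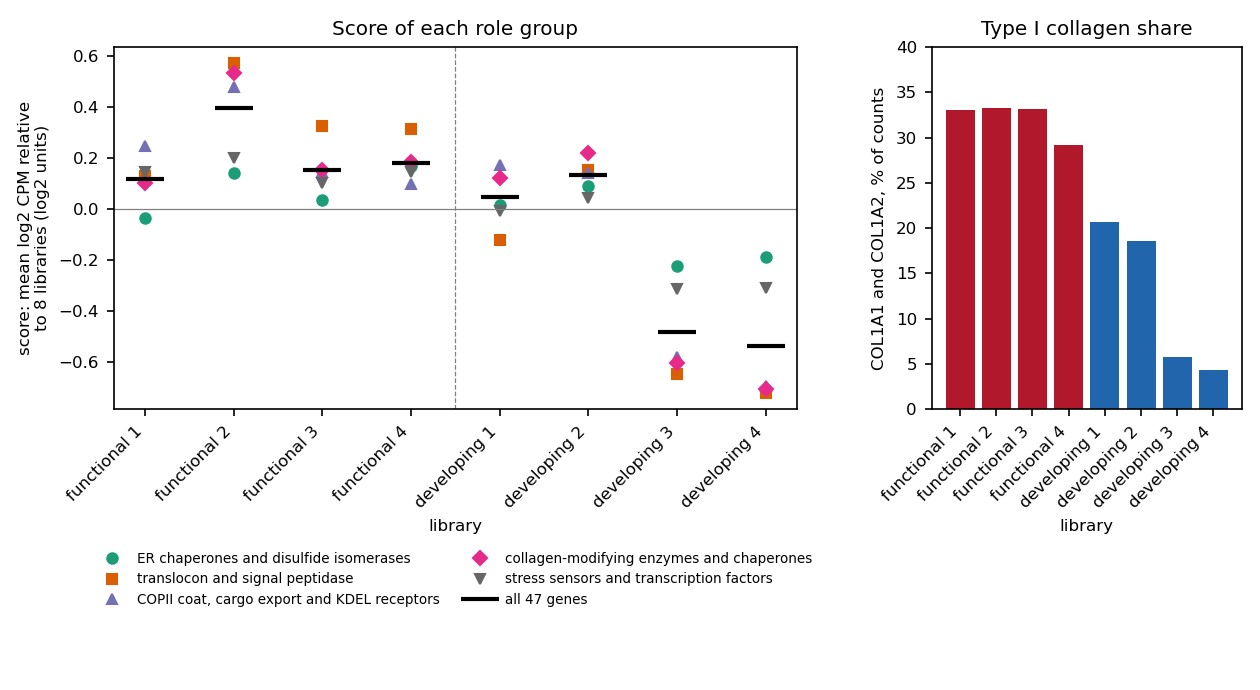
Left, the score of each role group in each library (mean log2 CPM relative to the 8 libraries, log2 units; symbols mark groups, black bars all 47 genes). Right, the share of counts from COL1A1 and COL1A2 in percent. In both panels developing replicates 3 and 4 are the lowest, with black bars (47 genes) at -0.48 and -0.54 and shares of 5.73% and 4.37%.

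The libraries of the tissues did not overlap for 11 of the 47 genes, all higher in functional teeth (23.4%), where the background was 6.42% higher and 8.6% lower. These were PDIA3, HYOU1, SEC61B, SSR4, SPCS1, SPCS2, SAR1A, PLOD1, FKBP10, ATF4 and ATF6. Without functional replicates 1 to 4 in turn, the count was 15, 11, 11 and 14 higher, and 0, 1, 0 and 3 lower. Without developing replicates 1 to 4 in turn, it was 15, 20, 11 and 11 higher, and 0 lower each time. The 20 came without developing replicate 2 (42.6%), where the background was 10.5% higher and 12.8% lower. Over all these settings, 1110 to 1630 of the 15491 genes were higher and 1491 to 1983 lower. In all 4 replicate numbers the functional library was above the developing library of the same number for 27 genes (57.4% beside 17.4% of all genes). It was below that library for 2 genes, PDIA4 and CREB3L2 (4.26% beside 19%). The labels do not state that same-numbered libraries are pairs.

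The genes of the translocon and signal peptidase, the machinery that threads a new chain into the ER, had the highest median of the 5 role groups. All 9 log2 fold changes were above 0, with a median of 0.69 and a range of 0.24 to 0.90. Of the 9, 7 had an unadjusted p under 0.05, where the share over all genes was 9.53% higher. With total counts as library sizes 6 of 9 were above 0. The lowest was then SPCS3 at -0.35, still above the median of all genes on that scale (-0.59). SSR4, a subunit of the translocon-associated protein complex, had 494, 634, 626 and 685 CPM in functional replicates 1 to 4, against 354, 428, 248 and 280.1 CPM in developing replicates 1 to 4. No developing library reached the lowest functional one, and the log2 fold change was 0.90 ± 0.20 (SE; adjusted p = 0.0562, and 0.00122 in DESeq2). SEC61B, the small beta subunit of the channel, had 358, 452, 443 and 460.1 CPM in functional replicates, against 293, 356, 208 and 205 CPM in developing replicates. Functional replicate 1 and developing replicate 2 nearly met, and the log2 fold change was 0.69 ± 0.21 (adjusted p = 0.109, and 0.0271 in DESeq2). SEC61A1, which forms the channel itself, had 1037, 1095, 985 and 868 CPM in functional replicates, against 816, 905, 524 and 489 CPM in developing replicates. Here functional replicate 4 fell between the developing libraries, and the log2 fold change was 0.54 ± 0.23 (adjusted p = 0.204).

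The other subunits of the translocon-associated complex had like values. SSR1 averaged 412 ± 44.2 CPM in functional teeth and 274 ± 112 CPM in developing teeth (SD, n = 4 each). SSR2 averaged 329 ± 75.8 CPM in functional teeth and 192 ± 73.4 CPM in developing teeth. SSR3 averaged 420.1 ± 87 CPM in functional teeth and 250.2 ± 101 CPM in developing teeth, and its functional replicate 2, at 549 CPM, was far above the other functional libraries. For SSR1, SSR2 and SSR3 the libraries overlapped, because developing replicate 2 reached or passed functional replicate 1. Of the signal peptidase subunits, which cut the signal peptide off or hold the enzyme together, SPCS1 had 52.6, 70.2, 59.9 and 61.6 CPM in functional replicates, against 38.8, 51.6, 26.1 and 25.9 CPM in developing replicates. Its libraries did not overlap (0.78 ± 0.24, adjusted p = 0.116, and 0.035 in DESeq2). SPCS2 also did not overlap (119.6 ± 7.63 CPM in functional teeth and 89.6 ± 16.6 CPM in developing teeth, 0.42 ± 0.16, adjusted p = 0.18). SPCS3, the third signal peptidase subunit here, averaged 114 ± 30.5 CPM in functional teeth and 96.8 ± 15 CPM in developing teeth (0.24 ± 0.21, adjusted p = 0.551). With developing replicates 3 and 4 left out, all 9 remained above 0 with a median of 0.36.

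**Figure D3:**
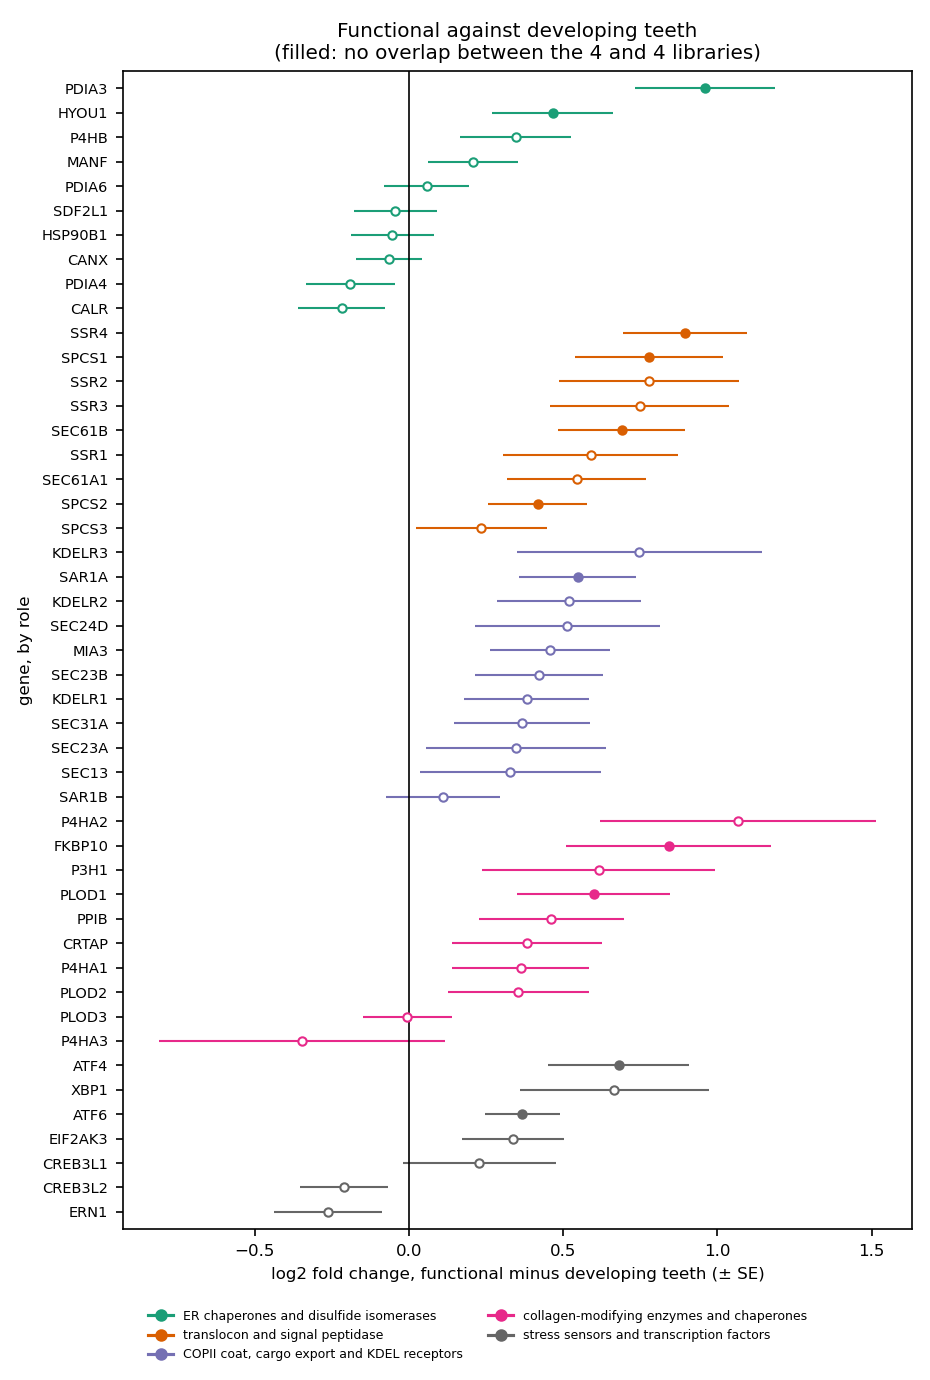
Log2 fold change of each gene, functional minus developing teeth, with its standard error as a bar, ordered within role groups shown by colour. Filled points mark the 11 genes whose functional and developing libraries did not overlap. All 9 translocon and signal peptidase genes and all 11 COPII and receptor genes lie right of 0 on this TMM scale. Of 10 chaperones and isomerases 5 lie left of it. With total counts 6 of 9 and 1 of 11 are above 0, where the median of all genes is -0.59.

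Chaperones and disulfide isomerases did not share that pattern: 5 of 10 log2 fold changes were above 0 and 5 below (1 and 9 with total counts as library sizes), with a median of 0.01. PDIA3, a disulfide isomerase that works with calnexin and calreticulin on glycoproteins, stood apart from the others in size. It had 982, 1394, 1183 and 1014 CPM in functional replicates 1 to 4, against 597, 824, 459.7 and 469.7 CPM in developing replicates 1 to 4. No developing library reached a functional one, and the log2 fold change was 0.96 ± 0.23 (adjusted p = 0.062, and 0.00249 in DESeq2). Its partners gave a different picture. CALR, the calcium-binding lectin chaperone calreticulin, had 421, 385, 445 and 539 CPM in functional replicates, against 547, 468, 531 and 536 CPM in developing replicates (-0.22 ± 0.14, adjusted p = 0.396). CANX, the membrane-bound lectin chaperone calnexin, had 287, 313, 299 and 276 CPM in functional replicates, against 315, 311, 307 and 295 CPM in developing replicates (-0.06 ± 0.11, adjusted p = 0.756). Only functional replicate 4 of CALR lay within the range of the developing libraries, and the CANX libraries were intermixed. A difference between PDIA3 and its partners was not tested.

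HYOU1, a large ER chaperone and nucleotide exchange factor, had 241, 244, 237 and 280.2 CPM in functional replicates, against 212, 232, 139 and 142 CPM in developing replicates. The tissues did not overlap, with a gap of a few CPM between functional replicate 3 and developing replicate 2 (0.47 ± 0.20, adjusted p = 0.211). P4HB, a disulfide isomerase that is also the beta subunit of collagen prolyl 4-hydroxylase, had 1032, 1249, 1178 and 1363 CPM in functional replicates, against 1031, 1183, 791 and 788 CPM in developing replicates. Functional replicate 1 and developing replicate 1 were level, and developing replicates 3 and 4 were low (0.35 ± 0.18, adjusted p = 0.297). The ER chaperone HSP90B1 had 298, 309.6, 258 and 271 CPM in functional replicates, against 313, 336, 261 and 271 CPM in developing replicates, fully intermixed (-0.05 ± 0.13, adjusted p = 0.835). PDIA4 averaged 93.4 ± 13 CPM in functional teeth and 107 ± 8.71 CPM in developing teeth. Functional replicates 1 to 3 of PDIA4 lay below all developing libraries, and functional replicate 4, at 110.1 CPM, lay among them. PDIA6 averaged 159 ± 11.7 CPM in functional teeth and 152 ± 19.9 CPM in developing teeth. SDF2L1, a component of ER chaperone complexes, averaged 24.6 ± 3.82 CPM in functional teeth and 25.4 ± 2.65 CPM in developing teeth. MANF, an ER stress-induced secreted protein, averaged 46.9 ± 7.33 CPM in functional teeth and 40.6 ± 4.66 CPM in developing teeth (adjusted p between 0.439 and 0.867 for these 4).

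**Figure D4:**
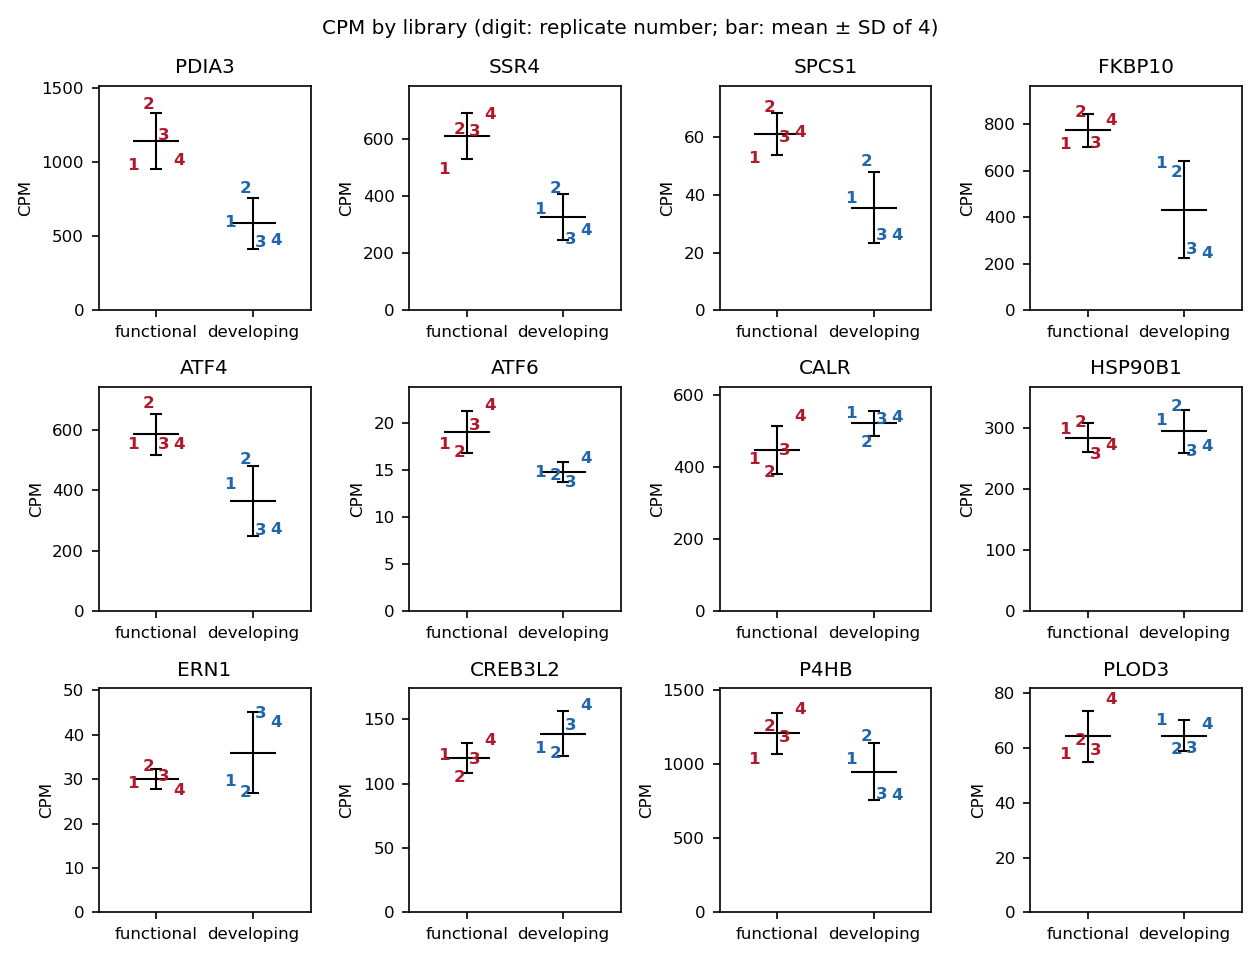
CPM of 12 genes in functional (left, red) and developing (right, blue) teeth; digits are replicate numbers, and black bars give the mean ± SD of 4 libraries on axes that start at 0. PDIA3, SSR4, SPCS1, FKBP10, ATF4 and ATF6 show no overlap between tissues, whereas CALR, HSP90B1, ERN1, CREB3L2, P4HB and PLOD3 overlap.

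All 11 genes of vesicle export and retrieval had log2 fold changes above 0, with a median of 0.42 and a range of 0.11 to 0.75, and none passed. With total counts as library sizes 1 of 11 was above 0. The lowest was then SAR1B at -0.45, still above the median of all genes on that scale (-0.59). For 10 of the 11, developing replicates 3 and 4 were the lowest of the 8 libraries. SAR1A, a small GTPase that starts COPII coat assembly, had 162, 182, 150.3 and 157 CPM in functional replicates 1 to 4, against 137, 132, 84.6 and 91.4 CPM in developing replicates 1 to 4. It was the only gene of this group without overlap (0.55 ± 0.19, adjusted p = 0.151). Its paralog SAR1B averaged 47.8 ± 10 CPM in functional teeth and 44.3 ± 5.93 CPM in developing teeth, with its lowest value, 33.4 CPM, in functional replicate 4 (0.11 ± 0.18, adjusted p = 0.755). SEC24D, a cargo-binding coat subunit known from skeletal defects in fish and people, had 301, 339.6, 247 and 278 CPM in functional replicates, against 298, 260.3, 132 and 127 CPM in developing replicates. Developing replicates 1 and 2 lay among the functional libraries (0.51 ± 0.30, adjusted p = 0.35). MIA3, the TANGO1 protein that helps load procollagen at ER exit sites, had 110.1, 114, 94.3 and 87.3 CPM in functional replicates, against 94.8, 81, 62.8 and 57 CPM in developing replicates. Only developing replicate 1 reached into the functional range (0.46 ± 0.19, adjusted p = 0.213).

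The coat subunits SEC13, SEC23A, SEC23B and SEC31A had log2 fold changes of 0.33 ± 0.29, 0.35 ± 0.29, 0.42 ± 0.21 and 0.37 ± 0.22, in that order. In each, developing replicate 1 or 2 lay within or above the range of the functional libraries. KDELR2, a receptor that returns escaped ER proteins from the Golgi, had 447, 515, 437 and 502 CPM in functional replicates, against 447, 401, 229 and 249 CPM in developing replicates. Developing replicate 1 matched functional replicate 1 (0.52 ± 0.23, adjusted p = 0.235). The related receptor KDELR1 averaged 83.8 ± 18.5 CPM in functional teeth and 64.3 ± 12.7 CPM in developing teeth (0.38 ± 0.20). KDELR3 averaged 223 ± 57.4 CPM in functional teeth and 133 ± 71.3 CPM in developing teeth (0.75 ± 0.40, adjusted p = 0.306). Its developing libraries ran from 197 CPM in replicate 2 to 62 CPM in replicate 4, and its log2 fold change was 0.21 with developing replicates 3 and 4 left out. Kallisto divides reads between similar transcripts, so the split between SAR1A and SAR1B, SEC23A and SEC23B, the KDEL receptors, or the P4HA and PLOD genes is uncertain. Without developing replicates 3 and 4 the median of the group was 0.14, and 8 of 11 were above 0.

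Of the 10 collagen-modifying genes 8 had log2 fold changes above 0 (4 with total counts as library sizes), with a median of 0.42, and none passed. With developing replicates 3 and 4 left out, 8 of the 10 were above 0, with a median of 0.08. FKBP10, a prolyl isomerase and collagen chaperone linked to brittle bone disease in humans, had 713, 852, 717 and 818 CPM in functional replicates 1 to 4, against 632, 592, 260.0 and 246 CPM in developing replicates 1 to 4. The tissues did not overlap, and developing replicates 3 and 4 were far below the other libraries (0.84 ± 0.33, adjusted p = 0.188, and a log2 fold change of 0.35 with those 2 libraries left out). PPIB, cyclophilin B, which acts with P3H1 and CRTAP in a prolyl 3-hydroxylation complex, had 688, 896, 904 and 902 CPM in functional replicates, against 728, 825, 491 and 419 CPM in developing replicates. Functional replicate 1 lay below developing replicates 1 and 2 (0.46 ± 0.24, adjusted p = 0.288). Its partner P3H1 averaged 175 ± 24.8 CPM in functional teeth and 114 ± 61.9 CPM in developing teeth, with 169, 167, 62.3 and 58.9 CPM in developing replicates 1 to 4 (0.61 ± 0.38, adjusted p = 0.372). CRTAP averaged 377 ± 63.4 CPM in functional teeth and 289 ± 91 CPM in developing teeth (0.38 ± 0.24, adjusted p = 0.385).

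PLOD1, a lysyl hydroxylase of collagen helices, had 130.3, 141, 129 and 152 CPM in functional replicates, against 128, 109, 65.4 and 62.8 CPM in developing replicates. There was no overlap, but functional replicate 3 and developing replicate 1 almost touched (0.60 ± 0.25, adjusted p = 0.206). PLOD2, which hydroxylates the telopeptides that form bone-type cross-links, averaged 593 ± 65.1 CPM in functional teeth and 464 ± 146 CPM in developing teeth (0.35 ± 0.23, adjusted p = 0.395). PLOD3, which also glycosylates hydroxylysine, was level at 64.2 ± 9.27 CPM in functional teeth and 64.5 ± 5.63 CPM in developing teeth (adjusted p = 0.99). Catalytic subunits of prolyl 4-hydroxylase had unlike patterns. P4HA1 averaged 209 ± 29.3 CPM in functional teeth and 163 ± 46.9 CPM in developing teeth (0.36 ± 0.22). P4HA2 had 93.8, 148, 91.3 and 78.3 CPM in functional replicates, against 63, 85, 25.6 and 22.5 CPM in developing replicates, so that only developing replicate 2 passed the lowest functional library. Its log2 fold change was the largest of the 47 genes at 1.07 ± 0.45 and ranged from 0.84 to 1.47 when single libraries were left out (adjusted p = 0.209). With developing replicates 3 and 4 left out it was 0.49. P4HA3 was at 1.75, 6.21, 2.22 and 1.65 CPM in functional replicates, against 2.66, 5.16, 3.68 and 3.61 CPM in developing replicates, with functional replicate 2 the highest of all (-0.35 ± 0.46, adjusted p = 0.69). It was the gene of the 47 with the fewest reads, at 31 counts in its lowest library, where the others had 264 or more.

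Of the 7 stress sensors and transcription factors 5 had log2 fold changes above 0 (2 with total counts as library sizes), with a median of 0.34, and none passed. ATF4, the factor translated when EIF2AK3 or related kinases are active, had 552, 688, 550.2 and 550.0 CPM in functional replicates 1 to 4, against 421, 501, 268 and 272 CPM in developing replicates 1 to 4. No libraries overlapped (0.68 ± 0.23, adjusted p = 0.141). ATF6, a membrane-bound sensor cut in the Golgi to release a transcription factor, had 17.7, 16.8, 19.7 and 21.8 CPM in functional replicates, against 14.7, 14.4, 13.7 and 16.2 CPM in developing replicates. It also did not overlap, and unlike most of the 47 genes its developing libraries were close together (0.37 ± 0.12, adjusted p = 0.136, and 0.40 with developing replicates 3 and 4 left out). XBP1, whose mRNA is spliced by ERN1, had 238, 267, 222 and 233 CPM in functional replicates, against 182, 235, 97 and 91.5 CPM in developing replicates. Developing replicate 2 passed functional replicates 3 and 4 (0.67 ± 0.31, adjusted p = 0.244). Gene counts do not show the splicing of XBP1, the translation of ATF4 or the cleavage of ATF6, which are the steps that carry the stress signal.

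Neither of the kinases that sense unfolded protein passed. EIF2AK3, also called PERK, had 102, 112, 100.5 and 90.4 CPM in functional replicates, against 96.2, 89.6, 69.5 and 65.2 CPM in developing replicates (0.34 ± 0.17, adjusted p = 0.273), and developing replicate 1 lay within the functional range. ERN1, also called IRE1 alpha, had 29, 32.7, 30.6 and 27.5 CPM in functional replicates, against 29.5, 27, 44.7 and 42.8 CPM in developing replicates (-0.26 ± 0.18, adjusted p = 0.409). Its developing replicates 3 and 4 were the highest of the 8 libraries, the reverse of most of the 47 genes, and its log2 fold change was 0.10 with those 2 left out. With total counts as library sizes the log2 fold changes were -0.23 for EIF2AK3 and -0.88 for ERN1, where the median of all genes was -0.59. CREB3L1, a membrane-bound factor of bone-forming cells that activates type I collagen transcription in mice, had 277, 253, 215 and 248 CPM in functional replicates, against 274, 277, 155 and 141 CPM in developing replicates (0.23 ± 0.25, adjusted p = 0.627). Developing replicates 1 and 2 were level with the functional libraries, and the log2 fold change was -0.14 with developing replicates 3 and 4 left out. CREB3L2, a related factor that drives secretory genes in cartilage, had 122, 105, 119 and 134 CPM in functional replicates, against 127, 123, 145 and 161 CPM in developing replicates (-0.21 ± 0.14, adjusted p = 0.414). CREB3L2 thus had its highest values in the same developing libraries in which CREB3L1 had its lowest.

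The other genes of the pathway were taken from 5 lists of 133 genes, of which 124 had a row and all 124 were tested. Of these 1 was called higher and 0 lower, and 1 of 124 is close to the 0.8% of all genes called higher (2.01% were called lower). In all 105 were above 0, where the share over all genes was 50.2%, and the median log2 fold change was 0.32, beside 0.00 over all genes. The gene called was NUPR1, a small stress-induced nuclear protein and known ATF4 target. It had 219.9, 178, 196 and 238 CPM in functional replicates 1 to 4, against 93.9, 101, 71.2 and 59.3 CPM in developing replicates 1 to 4. The lowest functional library was well above the highest developing one, and NUPR1 rose by a log2 fold change of 1.36 ± 0.20 (adjusted p = 0.0258). With the replicate number as a block its adjusted p was 0.0518, among the female libraries it was 0.0969, and when 1 library was left out the call was lost without functional replicates 1 (0.0507), 2 (0.0794), 3 (0.0917) or 4 (0.0641) or developing replicate 3 (0.079). With developing replicates 3 and 4 both left out its log2 fold change was 1.11 (adjusted p = 0.0834). In the same list of 27 tested stress-response genes, TRAF2, an adaptor that binds active ERN1, had 30.9, 23.1, 24.7 and 25.2 CPM in functional replicates, against 29.9, 35.1, 53.3 and 48.8 CPM in developing replicates (-0.68 ± 0.20, adjusted p = 0.0999). Like ERN1, it was highest in developing replicates 3 and 4.

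**Figure D5:**
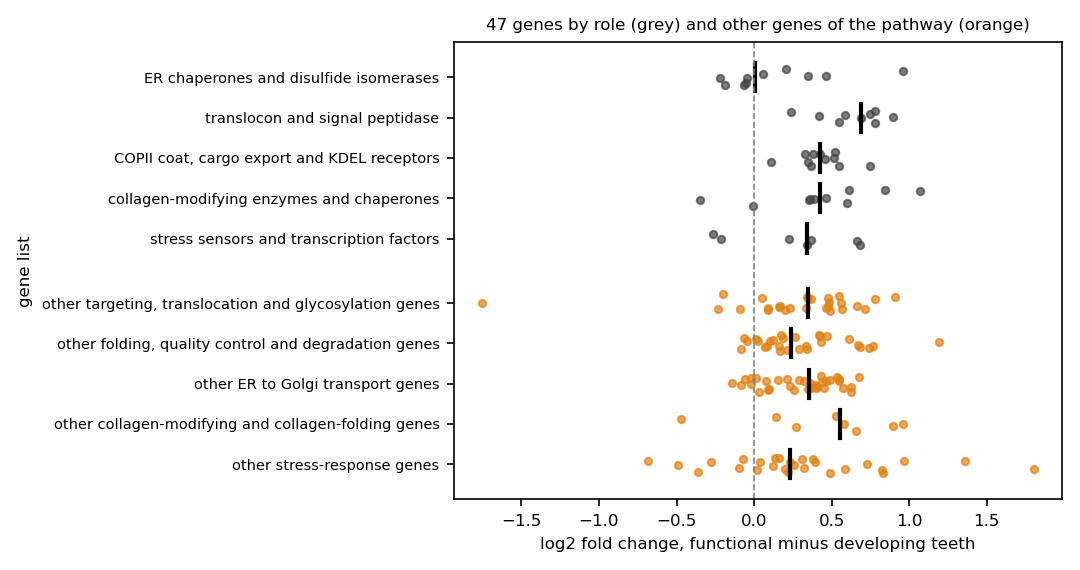
Log2 fold changes, functional minus developing teeth, of the 47 genes by role (grey) and of 124 other pathway genes by list (orange); each point is a gene, black bars are list medians, and the dashed line is the median of all genes tested. All 10 list medians lie at or right of that line, from 0.01 for chaperones and isomerases to 0.69 for translocon and signal peptidase genes.

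Among 27 tested targeting, translocation and glycosylation genes 23 were above 0, with a median of 0.35. DDOST, a subunit of the oligosaccharyltransferase that attaches N-glycans, averaged 399 ± 47.4 CPM in functional teeth and 252 ± 35.6 CPM in developing teeth without overlap (0.66 ± 0.15, adjusted p = 0.0605). TUSC3, an alternative subunit of the same enzyme, had 0.621, 0.973, 0.93 and 1.61 CPM in functional replicates, against 2.17, 2.07, 3.78 and 6.04 CPM in developing replicates (-1.76 ± 0.45, adjusted p = 0.0764). Its libraries did not overlap either, in the opposite direction. Among 34 tested ER to Golgi transport genes 29 were above 0, with a median of 0.35. The vesicle fusion gene STX5 averaged 65.3 ± 9.41 CPM in functional teeth and 42.4 ± 3.7 CPM in developing teeth (0.62 ± 0.14, adjusted p = 0.0568), and the cargo receptor gene TMED10 averaged 139.8 ± 16.4 CPM in functional teeth and 90.8 ± 18.6 CPM in developing teeth (0.62 ± 0.18, adjusted p = 0.1).

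Of 28 tested folding, quality control and degradation genes 25 were above 0, with a median of 0.24. SIL1, an ER nucleotide exchange factor, averaged 40.5 ± 6.99 CPM in functional teeth and 25.2 ± 5.08 CPM in developing teeth (adjusted p = 0.082), and FKBP11, a secretory-cell prolyl isomerase, averaged 160.4 ± 25.2 CPM in functional teeth and 70.2 ± 35.4 CPM in developing teeth (1.19 ± 0.35, adjusted p = 0.107). Of 8 tested collagen-folding genes 7 were above 0, with a median of 0.55. SERPINH1, the collagen chaperone HSP47, had 2270.2, 2379, 1991 and 3127 CPM in functional replicates, against 1773, 1829, 767 and 879 CPM in developing replicates (0.90 ± 0.32, adjusted p = 0.161). Its libraries did not overlap, and developing replicates 3 and 4 were again the lowest. P3H2, a prolyl 3-hydroxylase, averaged 77.5 ± 9.38 CPM in functional teeth and 49 ± 9.89 CPM in developing teeth (0.66 ± 0.18, adjusted p = 0.0844).

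Male libraries (replicate 4) were set against female libraries in a model with tissue. In it, sex, the number of teeth and the separate deposition of replicate 4 cannot be told apart. None of the 47 genes passed (edgeR's quasi-likelihood test), where the background was 3.63% higher and 1.05% lower in male libraries. Without adjustment, at a p under 0.05, 0 were higher and 2 lower, where the background was 11.9% higher and 9.02% lower. These were SEC23A at -0.75 ± 0.24 and SAR1B at -0.44 ± 0.15. In all, 40 of 47 differences were below 0, beside 7613 of the 15491 genes tested. The median of the 47 was -0.30, beside 0.01 over all genes. The 2 male libraries were not alike in this. The score of functional replicate 4 was 0.18, within the 0.12 to 0.39 of the female functional libraries. Developing replicate 4 scored -0.54, against 0.05, 0.13 and -0.48 in female developing replicates 1 to 3. The difference between male and female libraries thus cannot be told apart from the split among developing libraries. Of the 124 other pathway genes 3 passed, all lower in male libraries and named after their values were seen: DDIT3, the stress factor CHOP (-1.04, adjusted p = 0.0338), BET1 (-0.91, adjusted p = 0.0458) and PPP1R15B (-0.68, adjusted p = 0.0463). Each tissue had 1 male library, so these data cannot show whether the contrast of functional with developing teeth differed between the sexes, and edgeR's test of that difference called 0 of 15491 genes. Within the female libraries, the median log2 fold change of the 47 genes was 0.31, beside -0.01 over all genes, and 37 of the 47 were above 0. None of the 47 was called there, where the background was 0.00646% higher and 0.0129% lower.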

How the data were processed

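The authors deposited estimated counts per gene, 1 column per library, made with kallisto per the submitters' processing notes. For its version, strand setting and annotation, the sources used here give nothing. Libraries were stranded mRNA, per the labels' protocols. To within 1e-06, 33.6% of values were fractional, and they were rounded. Of 22488 names, 22407 matched a RefSeq symbol of assembly MPM_Emac_v1.0 and the other 81 (0.909% to 1.41% of a library) were left out. After filterByExpr, 15491 genes were tested with edgeR 4.0.16 (R 4.3.3, TMM, quasi-likelihood) without a covariate, adjusted over all genes. The SE was taken as log2 fold change over root F. DESeq2 1.42.0 was an alternative. Scores use a prior count of 2 and carry no test. CPM are not divided by transcript length, so levels of different genes are not compared.

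Deviations of same-numbered libraries from their tissue means had correlations of 0.16 to 0.68, all over the threshold of 0.1 used to look for pairs. Passing it does not single out pairs. The 0.68 was replicate 4, whose libraries also share sex, larger pools of teeth and a separate deposition. Replicates 1, 2 and 3 gave 0.23, 0.16 and 0.31, while functional replicate 3 with developing replicate 1 gave 0.41. These values thus do not establish a pairing by number. The labels do not state a pairing, and the main test ignores it. Members, lists and tests were chosen with earlier results of these data known. Values per library are given for 20 genes by rule (highest CPM, smallest p, all stress genes) and for others, such as CALR, CANX, HSP90B1, SPCS1, P4HA2 and P4HA3, chosen after seeing values. The fits were tested on simulated counts of functional against developing teeth, with 50 genes changed at each size. Changed genes were drawn from those averaging at least 50 counts, and libraries were drawn independently around their tissue mean. A split shared by many genes, like that of developing replicates 3 and 4, was not simulated, so recovery in the real libraries may differ. At 2-fold, 12 of the 50 were recovered, and at 4-fold 37 were. At 8-fold 49 were recovered and at 16-fold 48, with 9 false calls in a set of 15326 genes. Most genes changed 2-fold were thus missed, so a gene without a call is not shown to be level between the tissues.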

Additional observations from a re-analysis of the deposited data

Results flagged for a closer look

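Among 94 groups of 4 libraries (47 genes in 2 tissues), 8 had a library far from the other 3 by Dixon's test, where chance gives about 5%. All 8 were in functional teeth. Developing replicates 3 and 4 lay together below developing replicates 1 and 2 for 39 of the 47 genes. The test looks for 1 library apart from the other 3 and can hardly flag such a pair. The lack of flags in developing teeth thus does not show that those libraries were more uniform. Functional replicate 2 was the high library for SSR3 (549 CPM), KDELR1 (111 CPM), KDELR3 (309 CPM), P4HA3 (6.21 CPM) and ATF4 (688 CPM). For ATF4 the other 3 functional libraries lay between 550.0 and 552 CPM. Functional replicate 1 was the low library for SEC61B (358 CPM) and PPIB (688 CPM), where the other 3 for PPIB lay between 896 and 904 CPM. Functional replicate 4, the male library, was the high one for HYOU1 (280.2 CPM).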

How the results depend on the processing

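Over the other settings, the number of the 47 genes called was 0 in each direction, with these exceptions. DESeq2 called 4 higher, total counts as library sizes called 9 lower, and single libraries left out gave 0 to 3 higher and 0 lower. The replicate block changed no call among the 47 genes, and their lowest adjusted p was 0.0604 with it and 0.0562 without it. Of the 47, 26 were higher at an unadjusted p under 0.05 with the block and 16 without it. The share of all genes higher at that threshold was 12.9% with the block and 9.53% without it. Genes called over the whole table were 124 higher and 312 lower, 69 and 151 with the block, 246 and 425 with a covariate for sex, 721 and 959 with DESeq2, 151 and 7453 with total counts, 1 and 2 in the female libraries, and 1 and 7 with developing replicates 3 and 4 left out. Leaving out 1 library gave between 2 and 184 higher and between 5 and 457 lower. Total counts turned the sign of PDIA6 (-0.52), P4HB (-0.23), HYOU1 (-0.10), MANF (-0.37), SEC61A1 (-0.0088), SPCS2 (-0.15), SPCS3 (-0.35), SEC13 (-0.22), SEC23A (-0.20), SEC23B (-0.14), SEC24D (-0.032), SEC31A (-0.19), SAR1A (-0.017), SAR1B (-0.45), MIA3 (-0.11), KDELR1 (-0.19), KDELR2 (-0.039), P4HA1 (-0.20), PLOD2 (-0.20), CRTAP (-0.18), PPIB (-0.10), ATF6 (-0.23), EIF2AK3 (-0.23) and CREB3L1 (-0.32), because the median of all genes then moved to -0.59. With total counts the score was -0.11, 0.094, -0.078 and -0.23 in functional replicates 1 to 4, and 0.23, 0.28, -0.014 and -0.16 in developing replicates 1 to 4, so that the functional minus developing score turned negative in all 4 numbers (-0.34, -0.18, -0.064 and -0.067). A prior count of 0.5 left each score within its spread. PLOD3, at 0 within its error, was 0.0131 with DESeq2, 0.0129 with its size factors in edgeR and 0.00703 with type I collagen left out of TMM, and -0.11 to 0.059 when 1 library was left out. SDF2L1 ranged from -0.15 to 0.042 and HSP90B1 from -0.10 to 0.017 when 1 library was left out. PDIA6 was -0.059 in the female libraries. With developing replicates 3 and 4 left out, which was chosen after seeing the data, the sign turned for PDIA6 (-0.064), SEC13 (-0.10), SEC23A (-0.032), SAR1B (-0.029), ERN1 (0.10) and CREB3L1 (-0.14); the cause was not tested. Depth limits P4HA3 most.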
